A study of Homo sapiens with 18 samples.

Results

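Chromosomes 18 and 19 of the human genome (80.4 and 58.6 Mb) differ widely in gene content. They were compared for H3K27ac and CTCF peaks in HEK293T cells. HEK293T is an established, transformed human line derived from embryonic kidney. All peaks assigned to either chromosome in the 12 ChIP-seq peak lists were taken, 34259 of 506359 peaks (6.77%). Chromosome 18 held 3471 H3K27ac and 6102 CTCF peaks over the 6 lists of each antibody, and chromosome 19 held 11785 and 12901. The cells were untreated (CTRL) or given 1 mM VPA (valproic acid, an inhibitor of histone deacetylases) for 1 day, with 3 replicate libraries for each antibody and treatment. The 6 input libraries of the series were not analysed here. All libraries came from 1 cell line, and the labels do not say whether replicates were separate cultures, so p-values measure the spread between libraries only.

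H3K27ac, an acetylated lysine of histone H3, marks active promoters and enhancers. CTCF is a zinc finger protein that binds a long DNA motif and, with cohesin, anchors chromatin loops. In human cells the territory of gene-poor chromosome 18 usually lies near the nuclear envelope and that of gene-rich chromosome 19 in the interior of the nucleus. Nuclear position is background here, since the peak lists do not measure it. By GENCODE release 44, chromosome 18 had 266 protein-coding genes on 80.1 Mb of sequence without N bases (3.32 per Mb, rank 21 of the 22 autosomes) and a GC content of 39.8%. Chromosome 19 had 1476 genes on 58.4 Mb (25.3 per Mb) and a GC content of 47.9%, rank 1 in both respects.

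The CTCF regions that stood highest within the lists illustrate the peaks compared. Regions are merged peaks of the 6 libraries of an antibody, and for each chromosome the 3 with a peak in all 6 libraries and the highest mean percentile of fold enrichment are shown. Fold enrichment is the height of a peak's summit over its local background, as the peak caller gave it. Each line gives 54 bases of the hg38 genome around the best match to the CTCF core consensus, a motif of 14 bases, within 150 bases of the summit. The capitals mark the match, and the strand is the one on which the motif reads.
SMAD2, chr18:47749327-47749380, minus strand: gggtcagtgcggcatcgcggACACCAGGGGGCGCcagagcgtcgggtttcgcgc
ADNP2, chr18:80171377-80171430, plus strand: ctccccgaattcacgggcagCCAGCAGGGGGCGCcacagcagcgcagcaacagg
NFATC1, chr18:79246677-79246730, minus strand: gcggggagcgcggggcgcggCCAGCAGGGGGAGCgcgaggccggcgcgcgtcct
ARID3A, chr19:921859-921912, plus strand: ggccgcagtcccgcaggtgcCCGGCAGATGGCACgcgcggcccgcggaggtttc
LTBP4, chr19:40634675-40634728, minus strand: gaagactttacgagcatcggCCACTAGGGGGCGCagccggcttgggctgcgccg
KCTD15, chr19:33778214-33778267, plus strand: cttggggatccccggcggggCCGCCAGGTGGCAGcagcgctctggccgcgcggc
The name is that of the nearest protein-coding transcription start site (TSS). The match had no mismatch at the sites near ADNP2 and LTBP4 and 1 mismatch at the other 4.

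All 6 sites were chosen for their high fold enrichment, so their strength is a description. The region near SMAD2 (chr18:47748841-47749995) lay between genes, 182 kb from the TSS, with fold enrichments of 106, 200 and 213 in CTRL replicates 1 to 3 and 172, 186 and 245 in VPA. Its counterparts near ADNP2 (chr18:80170495-80171847, in an intron of PARD6G, fold 85.0 to 197) and NFATC1 (chr18:79246222-79247155, in an intron of ATP9B, fold 79.0 to 166) lay 62.1 and 149 kb from those starts. On chromosome 19, the region near ARID3A (chr19:921286-922386) lay between genes, 3.92 kb from the TSS, with fold enrichments of 112, 175 and 140 in CTRL and 163, 230 and 188 in VPA. The regions near LTBP4 (chr19:40634184-40635473, fold 106 to 235) and KCTD15 (chr19:33777467-33779431, fold 97.9 to 198) also lay between genes, 41.8 and 17.7 kb away. The ranges of the 6 regions overlapped.

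Replicate 1 had the shortest list in all 4 groups. No read totals are given in peak lists, so depth is unknown. The lowest local background recovered from the peak values of a list was taken as its genome-wide background. It ranged from 3.51 to 3.95 fragments and does not establish depth. The local background under the peaks differed between the chromosomes: its median was 1.21 to 3.36 times the genome-wide level on chromosome 18 and 2.46 to 10.8 times on chromosome 19, where replicate 1 was the highest of every group. Its part in the results below was not tested.

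The first comparison asked how densely each chromosome was occupied. H3K27ac peaks were 4.59 times as dense per Mb on chromosome 19 as on chromosome 18, and CTCF peaks 2.96 times. Chromosome 18 carried 5.67, 6.49 and 6.34 H3K27ac peaks per Mb in the CTRL libraries and 7.93, 8.63 and 8.28 in the VPA libraries. Chromosome 19 carried 22.7, 29.6 and 28.4 in CTRL and 35.1, 42.6 and 43.2 in VPA. The lowest value of chromosome 19 was above the highest of chromosome 18. For CTCF, chromosome 18 carried 9.33, 15.5 and 14.9 peaks per Mb in CTRL and 8.25, 13.3 and 15.0 in VPA. Chromosome 19 carried 33.2, 40.4 and 38.8 in CTRL and 29.9, 40.5 and 38.1 in VPA, again without overlap. The log2 ratio of chromosome 19 to 18 was 2.20 ± 0.132 for H3K27ac and 1.57 ± 0.234 for CTCF (SD, n = 6 libraries), higher on chromosome 19 in 6 of 6 libraries for both antibodies. The exact permutation test, which exchanges the sign of each library's difference, gave its smallest possible p of 0.03125 (two-sided, adjusted p = 0.0375 over 12 comparisons of the chromosomes) for both. The test is of repeatability over libraries of the same pair of chromosomes, not of gene-rich and gene-poor chromosomes in general.

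Per protein-coding gene the order was the opposite. In CTRL, chromosome 18 carried 1.86 ± 0.132 H3K27ac peaks per gene and chromosome 19 carried 1.07 ± 0.145 (SD, n = 3). The values in VPA were 2.49 ± 0.105 and 1.60 ± 0.178. CTCF peaks per gene were 3.98 ± 1.02 on chromosome 18 and 1.48 ± 0.149 on chromosome 19 in CTRL, and 3.66 ± 1.05 and 1.43 ± 0.218 in VPA. The log2 ratio of chromosome 19 to 18 was -0.73 ± 0.132 for H3K27ac (0.604-fold) and -1.36 ± 0.234 for CTCF (0.390-fold), lower in 6 of 6 libraries (exact permutation p = 0.03125, adjusted p = 0.0375 for both). The H3K27ac order depended on which genes were counted. Chromosome 18 had 543 genes for long non-coding RNAs and chromosome 19 had 748, and per protein-coding or long non-coding gene the H3K27ac log2 ratio was 0.28, higher on chromosome 19, while that of CTCF stayed below 0 at -0.35.

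**Figure D1:**
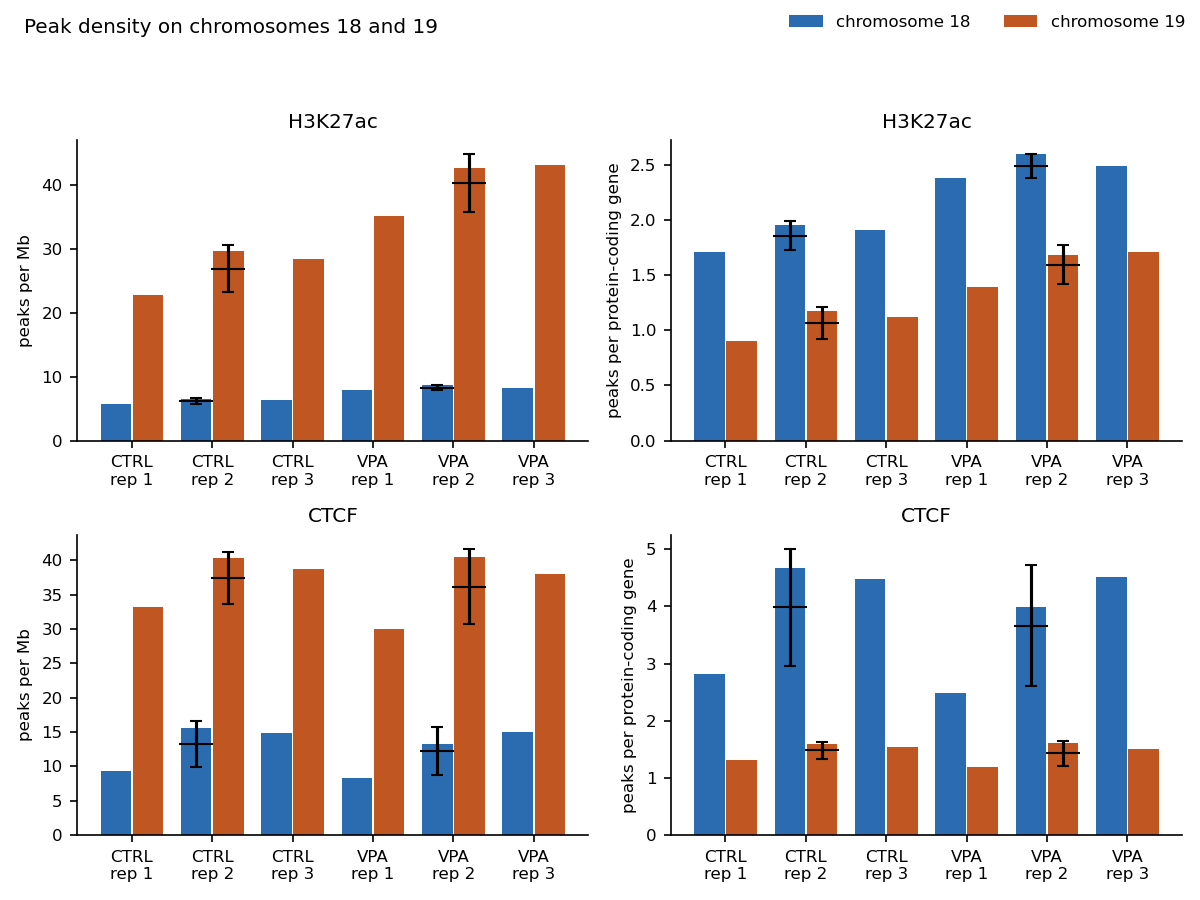
Peaks per Mb (left) and per protein-coding gene (right) in each H3K27ac library (top) and CTCF library (bottom), with chromosome 18 in blue and chromosome 19 in orange. Bars are single libraries, and the black line and whiskers over the middle bar of each group are the mean and SD of the 3 libraries. Chromosome 19 is higher per Mb and chromosome 18 higher per gene in every library.

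Both chromosomes stood near the ends of the range of the autosomes. In CTRL, chromosome 19 ranked 1 of 22 for peaks per Mb with both antibodies, and chromosome 18 ranked 22 for H3K27ac and 21 for CTCF. Over the 22 autosomes, the density of H3K27ac peaks in CTRL correlated with that of protein-coding genes with Pearson's r = 0.960 and Spearman's rho = 0.935, and that of CTCF peaks with r = 0.916 and rho = 0.957. Over the 20 other autosomes r was 0.932 for both antibodies. These points are chromosomes of the same libraries that also differ in base composition, and the values are given as a description.

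**Figure D2:**
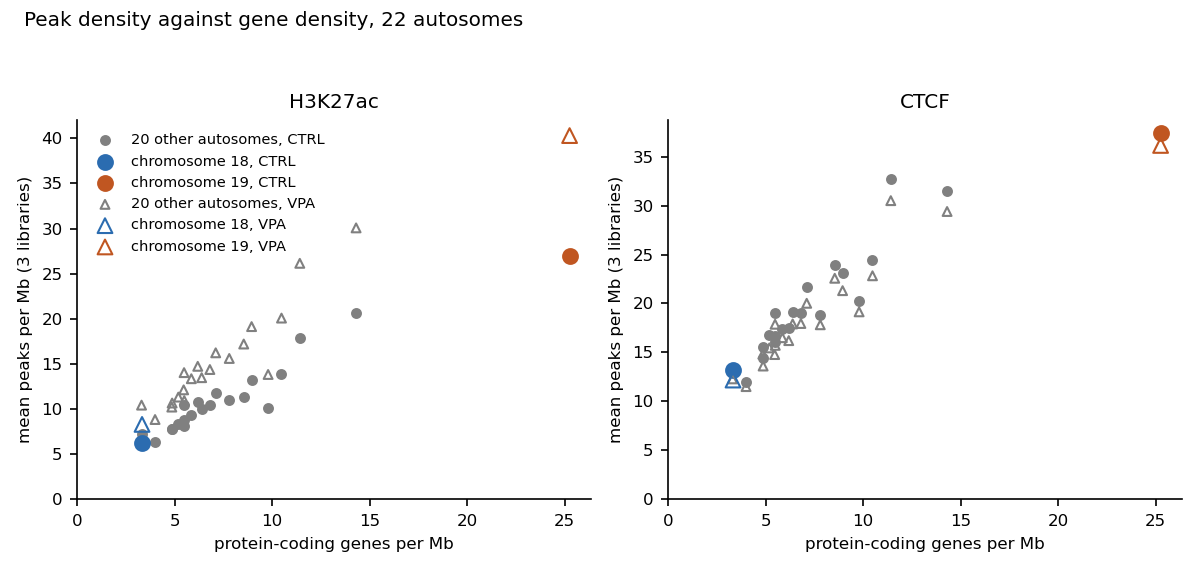
Mean peaks per Mb over the 3 libraries of a group against protein-coding genes per Mb, 1 point per autosome and treatment (filled circles CTRL, open triangles VPA). Chromosome 18 (blue, 3.32 genes per Mb) lies at the low end and chromosome 19 (orange, 25.3 genes per Mb) at the high end of both axes.

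Stretches of similar, though not equal, gene density on the 2 chromosomes were then set side by side in windows of 1 Mb, without a test. Of the windows with at least 20 protein-coding TSSs, 40 lay on chromosome 19 and 0 on chromosome 18. Of those with no TSS, 17 lay on chromosome 18 and 4 on chromosome 19. Windows with 10 to 19 TSSs, 5 on chromosome 18 and 7 on chromosome 19, held 13.5 ± 1.70 and 16.1 ± 1.62 H3K27ac peaks per window in CTRL (SD over 3 libraries), which was 1.19 ± 0.149 and 1.19 ± 0.120 peaks per TSS. The same windows held 24.5 ± 5.51 and 26.2 ± 3.67 CTCF peaks. Per TSS the CTCF order was the other way, 2.15 ± 0.483 on chromosome 18 and 1.93 ± 0.270 on chromosome 19. In windows with 5 to 9 TSSs, peaks per window were higher on chromosome 18 for both antibodies. H3K27ac peaks numbered 10.9 ± 0.342 on chromosome 18 (19 windows) and 8.33 ± 2.08 on chromosome 19 (4 windows). CTCF peaks numbered 19.1 ± 4.36 and 13.1 ± 2.24. In windows with 1 to 4 TSSs, chromosome 18 (39 windows) held 5.26 ± 0.474 H3K27ac and 12.9 ± 3.46 CTCF peaks. Chromosome 19 (3 windows) held 3.44 ± 0.694 and 15.8 ± 1.90. Per TSS the H3K27ac order was the other way, 2.57 ± 0.231 on chromosome 18 and 3.44 ± 0.694 on chromosome 19. In windows with no TSS, chromosome 18 held 0.608 ± 0.170 H3K27ac and 3.75 ± 1.57 CTCF peaks per window and chromosome 19 held 0.417 ± 0.144 and 5.25 ± 0.750. On chromosome 18, 9 to 12 of the 17 such windows had no H3K27ac peak in CTRL. In VPA, windows with 10 to 19 TSSs held 16.9 ± 1.47 H3K27ac peaks on chromosome 18 and 22.1 ± 0.861 on chromosome 19. Per TSS this was 1.48 ± 0.129 and 1.63 ± 0.0634 peaks. The order in VPA was the reverse in the sparser windows. Those with 5 to 9 TSSs held 15.6 ± 0.696 H3K27ac peaks on chromosome 18 and 9.83 ± 2.16 on chromosome 19. Those with 1 to 4 TSSs held 6.70 ± 0.521 and 4.67 ± 1, and those with no TSS 0.961 ± 0.378 and 0.333 ± 0.144.

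**Figure D3:**
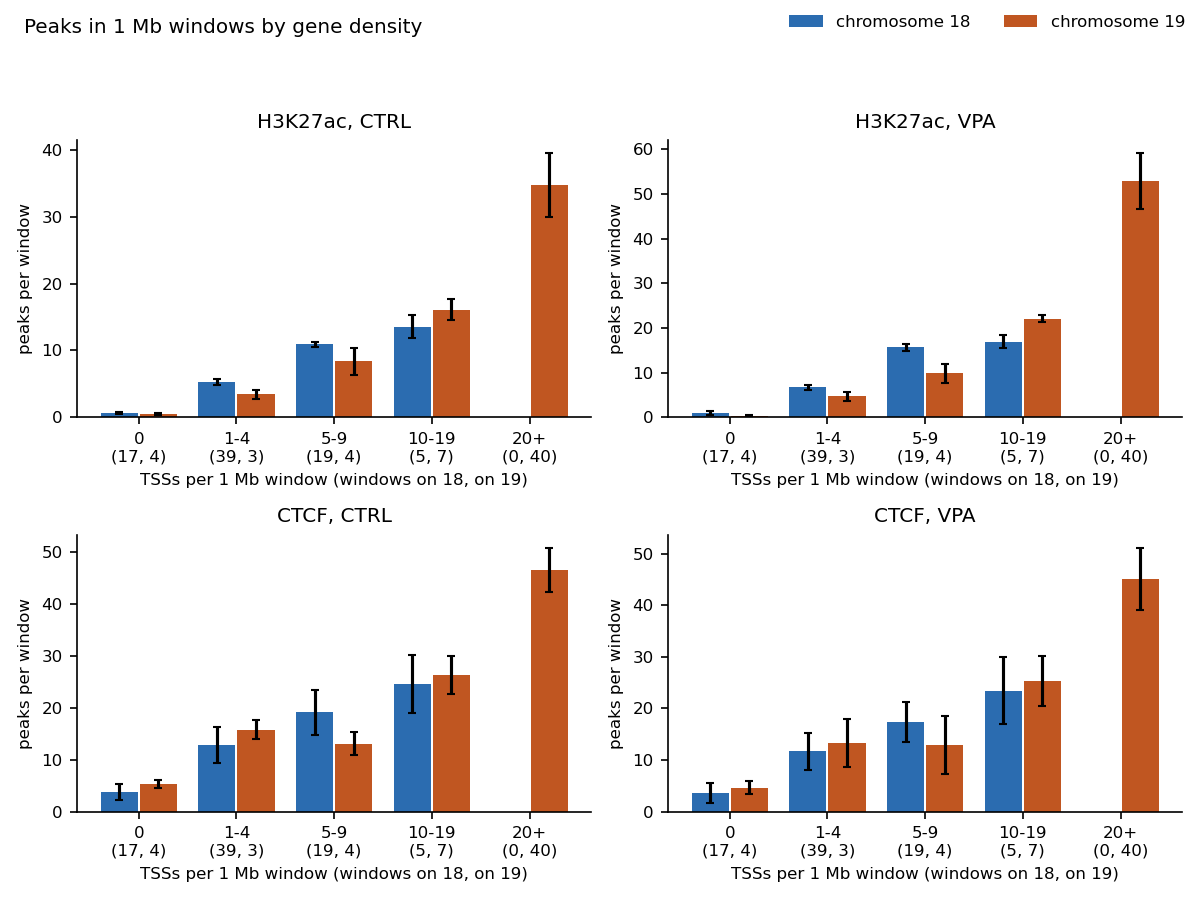
Mean number of peaks per 1 Mb window, for windows grouped by their number of protein-coding TSSs, on chromosome 18 (blue) and 19 (orange). Whiskers are the SD over the 3 libraries of the group, and the numbers of windows on each chromosome stand in brackets under each group. In windows with 10 to 19 TSSs the CTRL means are 13.5 and 16.1 H3K27ac peaks and 24.5 and 26.2 CTCF peaks, and only chromosome 19 has windows with 20 or more TSSs.

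Peaks were also wider on chromosome 19. The median H3K27ac peak width was 861.5, 1002 and 1024 bp on chromosome 18 in CTRL and 777, 1059 and 939 bp in VPA. On chromosome 19 it was 1163, 1328 and 1356 bp in CTRL and 1128.5, 1404 and 1323 bp in VPA, wider than chromosome 18 in the same library in 6 of 6 libraries, by 340 ± 27.7 bp (SD, n = 6, exact permutation p = 0.03125, adjusted p = 0.0375). Among peaks of regions found in all 6 libraries the difference was 190 bp and the call was lost (exact permutation p = 0.09375, adjusted p = 0.09375). CTCF peaks were wider on chromosome 19 by 161 ± 15.4 bp (6 of 6 libraries, exact permutation p = 0.03125, adjusted p = 0.0375), with medians of 499 to 672 bp on chromosome 18 and 656 to 826.5 bp on chromosome 19. Merged H3K27ac peaks covered 0.841 ± 0.139% of chromosome 18 and 4.38 ± 1.01% of chromosome 19 in CTRL, and CTCF peaks covered 0.881 ± 0.273% and 3.04 ± 0.421%.

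Fold enrichment separated the chromosomes for CTCF and not in every library for H3K27ac. Median CTCF fold enrichment was 9.24, 14.6 and 15.1 on chromosome 18 in CTRL and 15.5, 22.03 and 21.9 on chromosome 19. In VPA it was 9.20, 13.9 and 14.8 on chromosome 18 and 12.5, 20.9 and 24.4 on chromosome 19. The difference was 6.75 ± 2.04 (SD, n = 6, 6 of 6 libraries, exact permutation p = 0.03125, adjusted p = 0.0375). Over all autosomes the CTRL mean was 13.5 ± 3.27. Chromosome 18, with a mean of 13.0 ± 3.22, ranked 14 of 22, and chromosome 19 ranked 1. Median H3K27ac fold enrichment was 5.62, 5.65 and 6.28 on chromosome 18 in CTRL and 6.01, 8.42 and 8.40 on chromosome 19. In VPA it was 4.79, 4.79 and 5.15 on chromosome 18 and 4.52, 5.13 and 5.09 on chromosome 19, so the order differed between VPA libraries. The H3K27ac difference was 0.884 ± 1.25, higher on chromosome 19 in 4 of 6 libraries, and did not pass the test (exact permutation p = 0.125, adjusted p = 0.125).

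**Figure D4:**
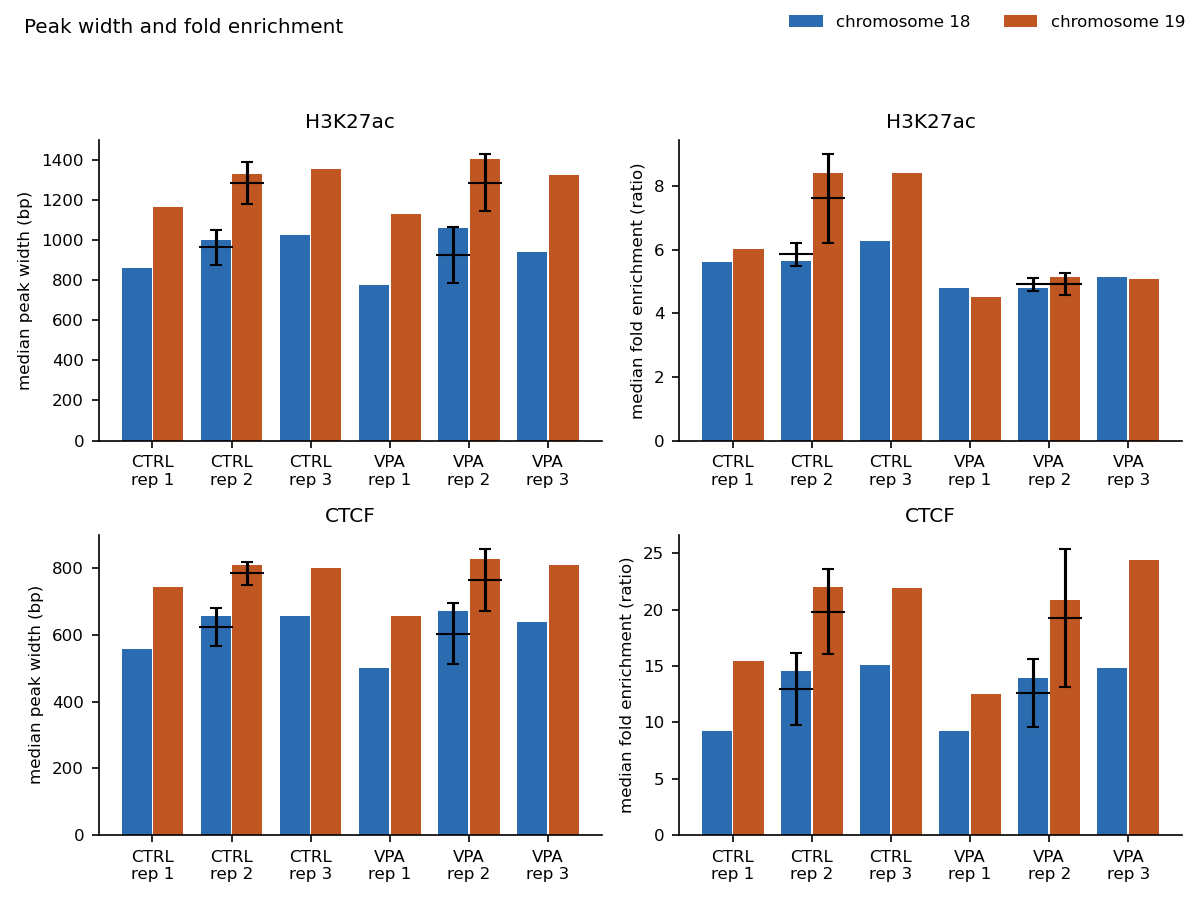
Median peak width in bp (left) and median fold enrichment (right, a ratio) in each H3K27ac library (top) and CTCF library (bottom), with chromosome 18 in blue and chromosome 19 in orange. The black line and whiskers over the middle bar of each group are the mean and SD of the 3 libraries. Width and CTCF fold enrichment are higher on chromosome 19 in every library, and H3K27ac fold enrichment is higher on chromosome 18 in VPA replicates 1 and 3.

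The position of peaks relative to genes differed too. In CTRL, 31.6 ± 2.75% of H3K27ac peaks on chromosome 18 and 45.5 ± 5.72% on chromosome 19 had their summit within 1 kb of a protein-coding TSS, here called promoter peaks. The share was higher on chromosome 19 in 6 of 6 libraries, by 10.7 ± 4.18 percentage points over both treatments (exact permutation p = 0.03125, adjusted p = 0.0375). Over all autosomes the H3K27ac share in CTRL was 33.4 ± 1.37%, and chromosome 18 ranked 13 and chromosome 19 ranked 1 of 22. For CTCF the share was 8.11 ± 1.10% and 14.8 ± 0.272% in CTRL, and the difference over both treatments was 6.44 ± 0.997 points (6 of 6 libraries, exact permutation p = 0.03125, adjusted p = 0.0375). Peaks over 100 kb from any protein-coding TSS made up 21.1 ± 1.04% of H3K27ac and 41.1 ± 1.90% of CTCF peaks on chromosome 18 in CTRL, against 0.444 ± 0.254% and 3.86 ± 0.218% on chromosome 19. The median distance of a CTCF summit from a TSS was 77.3 ± 3.25 kb on chromosome 18 and 9.51 ± 0.0085 kb on chromosome 19.

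The CTCF core consensus was searched on both strands within 50 bp of each summit, with at most 1 mismatch. In CTRL, 26.2, 26.0 and 26.3% of CTCF peaks on chromosome 18 held it, and 31.7, 34.9 and 35.7% on chromosome 19. In VPA the shares were 36.5, 24.6 and 27.4% on chromosome 18 and 34.2, 33.9 and 35.8% on chromosome 19. VPA replicate 1, the list with the fewest CTCF peaks on chromosome 18, was the exception to the order of the other 5. The difference of 6.54 ± 4.57 points did not pass the test after adjustment (higher on chromosome 19 in 5 of 6 libraries, exact permutation p = 0.0625, adjusted p = 0.0682). Windows of the same length 2 kb from the summits held a match in 0.121 to 0.417% of cases on chromosome 18 and 0.571 to 0.817% on chromosome 19.

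More CTCF summits lay in acetylated chromatin on chromosome 19. Of the CTCF summits of the CTRL libraries, 13.5, 11.8 and 11.4% on chromosome 18 and 26.8, 27.2 and 26.7% on chromosome 19 fell inside H3K27ac regions found in at least 2 of 3 libraries of the same treatment. In VPA the shares were 21.2, 15.9 and 12.3% on chromosome 18 and 44.2, 38.2 and 37.1% on chromosome 19. The difference over all 6 libraries was 19.01 ± 4.91 points (6 of 6 libraries, exact permutation p = 0.03125, adjusted p = 0.0375). The acetylated regions covered 0.982% of chromosome 18 and 5.23% of chromosome 19 in CTRL, so the share of summits exceeded the share of sequence by 12.5 ± 1.13 times on chromosome 18 and by 5.14 ± 0.0541 times on chromosome 19. In VPA the regions covered more, 1.36% and 8.55%, and the share of summits was 12.1 ± 3.31 and 4.66 ± 0.445 times that of sequence. Relative to the covered sequence, the mean share of summits was thus no higher in VPA than in CTRL. The libraries of the 2 treatments overlapped in this ratio on both chromosomes, and the difference was not tested.

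The comparison of treatments asked whether VPA acted alike on both chromosomes. H3K27ac peaks were more numerous in VPA on both, and CTCF peaks were about as numerous as in CTRL. On chromosome 18, H3K27ac peaks numbered 454, 520 and 508 in CTRL and 635, 691 and 663 in VPA, a ratio of the means of 1.34 (log2 0.42). On chromosome 19 they numbered 1329, 1731 and 1659 in CTRL and 2052, 2491 and 2523 in VPA, a ratio of 1.497 (log2 0.58). The lowest VPA library was above the highest CTRL library on both chromosomes, and the exact permutation test of 3 against 3 libraries gave its smallest possible p of 0.1 (adjusted p = 0.2 over 4 tests), so this design cannot pass 0.05. Among the autosomes the ratio of chromosome 19 ranked 2 and that of chromosome 18 ranked 20 of 22, where the 20 others lay between 1.32 and 1.53. When every list was limited to the length of the shortest, the log2 change was 0.18 on chromosome 19 and -0.060 on chromosome 18. The change of chromosome 19 exceeded that of chromosome 18 by 0.16 on the log2 scale, which did not pass the test of the difference (exact permutation p = 0.3, adjusted p = 0.6 over 6 tests). Within replicate numbers 1, 2 and 3 it was 0.14, 0.11 and 0.22, positive in 3 of 3, and with the number as a block the exact permutation p was 0.25, the smallest that 3 pairs allow. Whether the numbers pair the libraries is uncertain, as described under the processing.

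CTCF peaks numbered 747, 1242 and 1190 on chromosome 18 in CTRL and 661, 1063 and 1199 in VPA, a ratio of 0.919 (exact permutation p = 0.6, adjusted p = 0.7). On chromosome 19 they numbered 1939, 2359 and 2265 in CTRL and 1750, 2364 and 2224 in VPA, a ratio of 0.966 (exact permutation p = 0.7, adjusted p = 0.7). The ranges of the 2 treatments overlapped on both chromosomes. The ratios ranked 21 and 1 of 22 among the autosomes, within a narrow range, since the 20 others lay between 0.919 and 0.960. The difference between the chromosomes was 0.07 on the log2 scale (exact permutation p = 0.9, adjusted p = 1).

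**Figure D5:**
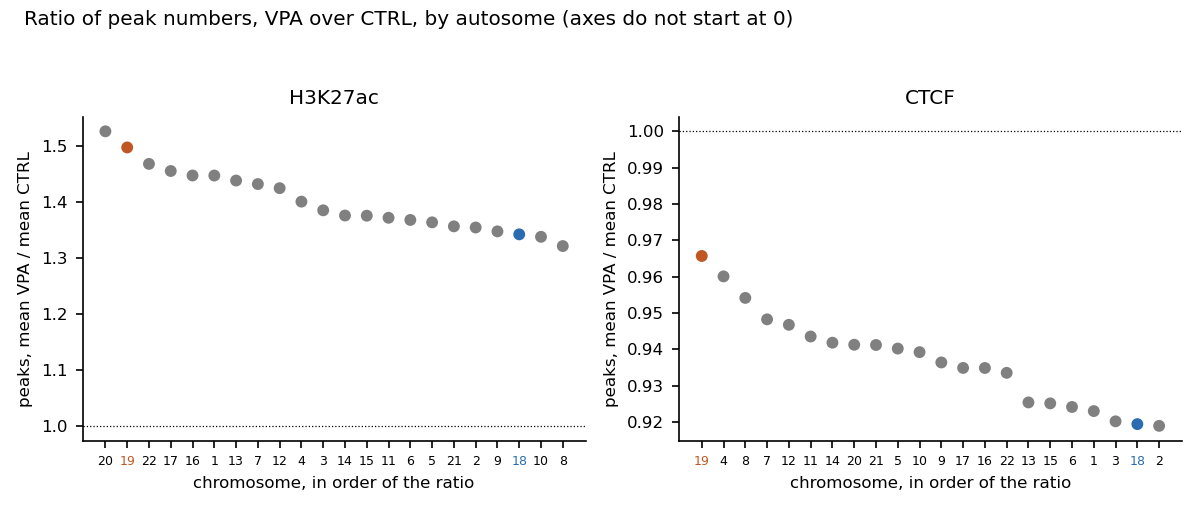
Mean number of peaks in the 3 VPA libraries over the mean in the 3 CTRL libraries, 1 point per autosome in order of the ratio, for H3K27ac (left) and CTCF (right). The dotted line marks a ratio of 1 and the axes do not start at 0. Chromosome 19 (orange) lies at 1.497 and 0.966 and chromosome 18 (blue) at 1.34 and 0.919.

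The make-up of the H3K27ac peaks on each chromosome was also compared between treatments. The share of promoter peaks on chromosome 18 was 34.8, 29.8 and 30.3% in CTRL and 25.4, 22.4 and 23.5% in VPA. On chromosome 19 it was 52.0, 41.2 and 43.2% in CTRL and 35.4, 29.7 and 29.0% in VPA. Promoter peaks themselves numbered 158, 155 and 154 in CTRL and 161, 155 and 156 in VPA on chromosome 18, with overlap. On chromosome 19 they numbered 691, 714 and 717 in CTRL and 727, 740 and 731 in VPA, without overlap. Peaks elsewhere numbered 296, 365 and 354 in CTRL and 474, 536 and 507 in VPA on chromosome 18, and 638, 1017 and 942 in CTRL and 1325, 1751 and 1792 in VPA on chromosome 19. The shares of the treatments did not overlap on either chromosome (exact permutation p = 0.1, the smallest possible, adjusted p = 0.333 over 20 tests of treatment). Over all autosomes the share of promoter peaks was 33.4 ± 1.37% in CTRL and 24.4 ± 0.434% in VPA, also without overlap. Median H3K27ac fold enrichment in VPA was lower than in CTRL by 0.942 on chromosome 18 and by 2.70 on chromosome 19, and the difference in median fold between the chromosomes was 1.76 ± 1.23 in CTRL and 0.00695 ± 0.312 in VPA (exact permutation p = 0.1, adjusted p = 0.3). Among peaks of regions found in all 6 libraries, that contrast of the treatments had the opposite sign, 1.61 against -1.75. Covered sequence on chromosome 19 was 4.38 ± 1.01% in CTRL and 7.03 ± 1.57% in VPA, without overlap. On chromosome 18 it was 0.841 ± 0.139% and 1.12 ± 0.194%, with overlap. The libraries covered 1.249 to 1.687% of all autosomes in CTRL and 1.756 to 2.445% in VPA, also without overlap. The separation was thus not particular to chromosome 19.

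H3K27ac regions with a peak in every VPA library and in no CTRL library numbered 30 of 935 on chromosome 18 (3.21%, Wilson 95% interval 2.26 to 4.54%, covering counting error only) and 170 of 2991 on chromosome 19 (5.68%, 4.91 to 6.57%). Over all autosomes 4.12% of 55382 H3K27ac regions were of this kind, and the shares ranked 21 and 2 of 22. Leaving out VPA replicate 1 raised the counts to 81 and 468, and equal list lengths lowered them to 17 and 58. The reverse class, in CTRL only, held 2 regions on chromosome 18 and 0 on chromosome 19, where the background was 0.139%, and a count of 0 of 2991 allows a share of up to 0.100%. Regions in all 6 libraries made up 32.5% (304 regions, 29.6 to 35.6%) on chromosome 18 and 35.6% (1066, 33.9 to 37.4%) on chromosome 19. Over all autosomes the share was 33.2%, so that of chromosome 18 was near it. Of the 304 and 1066 regions, 146 and 621 had their summit at a promoter (48.0 and 58.3%), a share not computed for the other autosomes. Of the regions only in VPA, 0 of 30 on chromosome 18 did, which allows up to 10.0%, and 4 of 170 on chromosome 19 (2.35%, 0.919 to 5.89%).

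CTCF regions in all 6 libraries made up 32.2% of 1520 regions on chromosome 18 (29.9 to 34.6%, rank 20 of 22) and 56.4% of 2668 on chromosome 19 (54.6 to 58.3%, rank 1), against 39.7% over all autosomes. Regions only in VPA numbered 2 and 3 on chromosomes 18 and 19, where the background was 0.186%, and regions only in CTRL also 2 and 3, where the background was 0.326%. Those on chromosome 18 lay in introns of CTIF and TMEM241 and between genes near ANKRD30B and CEP76. Those on chromosome 19 lay in an intron of HOOK2 near JUNB, in exons of KLK5 and NFIX, in introns of SNRPD2 and ZNF584, and between genes 1318 kb from UQCRFS1. Their fold enrichments lay between 1.78 and 7.11 in the libraries that had a peak.

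Of the H3K27ac regions in all 6 libraries, the 3 with the highest percentile of fold enrichment on each chromosome are described here. On chromosome 18 the highest was chr18:49488788-49494796 at the start of RPL17, a ribosomal protein gene, and its read-through gene RPL17-C18orf32. Its fold enrichment was 32.7, 99.98 and 104 in CTRL and 23.3, 67.2 and 45.8 in VPA. The third, chr18:32091180-32098844, covered the start of RNF138, which encodes a ubiquitin ligase, with 30.1, 83.0 and 86.5 in CTRL and 13.9, 48.4 and 66.0 in VPA. The second, chr18:39798390-39800883, lay between genes, 2155 kb from the nearest protein-coding TSS (PIK3C3, a lipid kinase gene), with fold enrichments of 26.9, 81.5 and 74.0 in CTRL and 23.3, 55.7 and 41.4 in VPA. On chromosome 19 the highest were chr19:41859067-41868022 at RPS19, a ribosomal protein gene, chr19:41261916-41268201 at HNRNPUL1, an RNA-binding protein gene, and chr19:3982028-3991740 at EEF2, which encodes a translation elongation factor. EEF2 had fold enrichments of 35.7, 81.9 and 105 in CTRL and 21.5, 61.7 and 64.2 in VPA. Replicate 1 was the lowest of its treatment at each of these 6 regions.

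The strongest regions only in VPA were of middling rank in their lists. On chromosome 18, by the percentile of their −log10 q-value, they were chr18:24487439-24489003, between genes and 27.9 kb from HRH4 (a histamine receptor gene, fold 11.0, 6.14 and 5.57 in VPA), and regions in introns of TTC39C, ABHD3, DTNA and ANKRD29. On chromosome 19 they were chr19:49468080-49470357 in an exon of ALDH16A1 near FLT3LG (a cytokine gene, fold 5.02, 9.32 and 8.93), chr19:41500833-41502242, between genes and 47.8 kb from CEACAM21 (fold 15.1, 7.11 and 5.96), and regions in introns of CERS4 and ZSWIM4 and between genes near TRPM4. The mean percentiles of these 10 regions lay between 49.5 and 65.9. Both regions only in CTRL, in introns of RBBP8 and ZNF532 on chromosome 18, lay at 25.3 and 10.8.

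The genes with the most H3K27ac regions only in VPA are given with their lengths, since a longer gene can hold more regions. CCDC178 on chromosome 18 (chr18:32937402-33441101, 504 kb) held 3 such regions, and 3, 2 and 2 H3K27ac summits in CTRL against 8, 6 and 7 in VPA. DTNA (399 kb), which encodes a component of the dystrophin complex, and CD226 (131 kb), an immune receptor gene, held 2 each. On chromosome 19, ANKRD24 (chr19:4182689-4224814, 42.1 kb) held 3, with 0 summits in each CTRL library and 3, 5 and 3 in VPA. NFIX (103 kb), a transcription factor gene, also held 3, with 4, 8 and 6 summits in CTRL and 9, 12 and 16 in VPA. The CTCF summits in these genes overlapped between treatments, with 4 in ANKRD24 in all 6 libraries.

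A gene's promoter was counted as acetylated in a library if an H3K27ac peak touched the window of 1 kb on either side of its annotated TSS. In contrast to peak density per Mb, the share of genes so marked was higher on chromosome 18, at 66.5, 70.3 and 69.9% of 266 genes in CTRL and 68.4, 71.1 and 71.8% in VPA. On chromosome 19 it was 56.8, 63.5 and 63.4% of 1476 genes in CTRL and 61.0, 66.9 and 66.3% in VPA, lower than on chromosome 18 in 6 of 6 libraries, by 6.69 ± 1.89 points. This difference did not pass after adjustment (exact permutation p = 0.03125, adjusted p = 0.0938 over 6 tests of promoters). Over all autosomes the mean was 62.0% in CTRL, and chromosome 18 ranked 1 and chromosome 19 ranked 15. CTCF peaks touched 36.7 ± 5.37% of promoters on chromosome 18 and 28.7 ± 3.05% on chromosome 19 in CTRL, and the difference over all 6 libraries gave the same p-values.

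The 250 bases before the TSS held more CG dinucleotides, the sites of DNA methylation, where promoters were acetylated. On chromosome 18 the median was 23 CG (quartiles 16 to 30) at the 183 promoters acetylated in at least 2 of 3 libraries of both treatments and 4 (2 to 14) at the 72 without a peak in any library. On chromosome 19 it was 18 (12 to 25) at 920 promoters and 6 (3 to 10) at 470. As examples, these 250 bases are given for RNF138 and EEF2, acetylated in all 6 libraries, and for BST2, acetylated in the 3 VPA libraries only, with CG in capitals and read in the direction of the gene in hg38.
RNF138, chr18:32091624-32091873, plus strand, 13 CG: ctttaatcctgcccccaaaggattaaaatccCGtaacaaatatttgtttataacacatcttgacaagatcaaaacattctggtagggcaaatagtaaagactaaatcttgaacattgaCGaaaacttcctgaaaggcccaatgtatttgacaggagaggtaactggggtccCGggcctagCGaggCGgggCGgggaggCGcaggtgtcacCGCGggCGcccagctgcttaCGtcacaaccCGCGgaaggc
EEF2, chr19:3985464-3985713, minus strand, 31 CG: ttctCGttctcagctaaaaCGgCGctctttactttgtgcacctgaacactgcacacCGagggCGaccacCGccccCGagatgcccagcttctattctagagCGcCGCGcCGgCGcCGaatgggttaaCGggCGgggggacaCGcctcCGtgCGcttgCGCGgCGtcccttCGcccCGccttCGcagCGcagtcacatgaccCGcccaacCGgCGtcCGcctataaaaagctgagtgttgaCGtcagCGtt
BST2, chr19:17405631-17405880, minus strand, 2 CG: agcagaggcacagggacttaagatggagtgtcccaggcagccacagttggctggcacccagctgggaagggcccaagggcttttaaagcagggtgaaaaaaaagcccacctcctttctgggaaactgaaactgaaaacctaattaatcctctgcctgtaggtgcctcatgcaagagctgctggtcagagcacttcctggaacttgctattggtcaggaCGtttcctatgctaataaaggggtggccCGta

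Promoters acetylated in every VPA library and in no CTRL library numbered 10 on chromosome 19 (0.678% of genes) and 0 of 266 on chromosome 18, where 54 of 19111 genes (0.283%) were of this kind over all autosomes, and no gene of any autosome was of the reverse kind. They were those of CACNA1A (chr19:13206442-13633025), a neuronal calcium channel gene, BST2 (chr19:17402939-17405630), which encodes the antiviral membrane protein tetherin, and MVB12A, an ESCRT gene that starts next to BST2 on the opposite strand and has a promoter window that overlaps it. The others were DENND1C, a regulator of Rab GTPases and the only one with CTCF at the promoter in all 6 libraries, RGL3, a Ral exchange factor gene, LYPD3, a membrane protein gene, the homeobox gene TPRX2, and NFILZ, TMEM150B and C19orf81.

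Gene families of both chromosomes were then described by the same promoters. The TSS used is the outermost start of the gene in the annotation, so a promoter in use at another start is missed, and an acetylated promoter below had a peak in at least 2 of 3 libraries of both treatments. By that rule 183 of 266 genes of chromosome 18 (68.8%), 920 of 1476 of chromosome 19 (62.3%) and 62.6% over all autosomes had one. On chromosome 18, all 3 SMAD genes, which carry TGF-beta signals (SMAD2, SMAD4 and SMAD7), and 10 of 11 cell cycle and chromatin genes (among them CXXC1, ESCO1, MBD1 and MBD2) had one. So did 7 of 9 developmental transcription factor genes (77.8%, near the share of the chromosome, among them GATA6, NFATC1, ONECUT2 and SALL3). Of 9 genes grouped here as neural, not all of them specific to neurons, 4 had one (44.4%, ASXL3, KCTD1, MBP and NOL4). Of the 7 desmosomal cadherin genes, which lie in 1 cluster, DSC2, DSC3 and DSG2 had one and the other 4 had none in any library. CDH2 (N-cadherin) was the only one of 4 other cadherin genes, SERPINB8 the only one of 10 clade B serpin genes, and none of the 3 melanocortin receptor genes had one.

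On chromosome 19, acetylated promoters were found at 184 of 251 zinc finger genes (73.3%, ZFP14, ZFP28, ZFP30 and ZFP36 among them), and 55 (21.9%) had no peak in any library, against 31.8% of all genes of the chromosome. They were found at 12 of 13 cytosolic ribosomal protein genes (such as RPL13A and RPL18), at 12 of 13 genes of chromatin and RNA processing (such as CHAF1A, DNMT1 and HNRNPL), and at all 3 AP-1 genes (FOSB, JUNB and JUND). Few were found at 15 kallikreins (KLK15 and KLK8), 12 cytochrome genes of the CYP2 and CYP4F families (CYP2S1 and CYP4F22), 7 gonadotropin beta subunit genes (LHB) and 4 apolipoprotein genes (APOC1). None were found at 31 genes of the leukocyte receptor complex or at 20 olfactory receptor genes, which also had no CTCF peak at the promoter in 2 or more libraries of either treatment. The 22 CEACAM and PSG genes, which encode adhesion molecules and pregnancy-specific glycoproteins, had no acetylated promoter either. A CTCF peak lay at the promoter of 9 of them (40.9%) in at least 2 of 3 libraries of CTRL and of 9 in VPA, against 29.0% and 29.1% of all genes of chromosome 19. These were CEACAM1, CEACAM3, CEACAM4, CEACAM5, CEACAM7, CEACAM8, PSG2, PSG4 and PSG6, named after their values were seen. Members of this family are near copies of each other, and how reads that fit several members were placed is not given in the sources used here, so the gene assigned is uncertain. No group had fewer acetylated promoters in VPA than in CTRL, and those with more were the neural group (4 in CTRL and 5 in VPA), other cadherins (1 and 2) and apolipoproteins (1 and 2).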

How the data were processed

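ChIP-seq peaks of 12 HEK293T libraries were analysed. The authors aligned paired reads to hg38 with Bowtie2 and called peaks in each library with MACS3 (version 3.0.0a7 per the submitters' processing notes) at a q-value of 0.05. The use of input libraries and the treatment of duplicates are not given in the sources used here. The deposited lists hold, as the authors' peak caller wrote them, the fold enrichment (a ratio), the −log10 p-value, the −log10 q-value and a score, of which the score was not used. Groups and replicate numbers came from the labels. Chromosomes, regions and gene lists were chosen with earlier results of these data known.

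Intervals were handled in Python 3.11.15 (numpy 2.4.6, pandas 2.3.3, scipy 1.17.1, matplotlib 3.10.9) with GENCODE release 44 on hg38. Regions are merged peaks sharing at least 1 bp. Depth is unknown. Summit pileups and local backgrounds were recovered from fold enrichment and −log10 p-value, and pileups were whole within 0.05 in at least 99.9975% of peaks of each list. Chromosomes were compared within libraries by exchanging the sign of each of the 6 differences (64 ways), and treatments by exact permutation of 3 against 3 libraries (20 ways), both two-sided, with Benjamini-Hochberg adjustment within 12, 4 and 6 tests. Tests of other measures between treatments (20) and of the share of genes with a promoter peak (6) were added after the data were seen. The procedures were tested on simulated data. Named regions were, for each chromosome and antibody, the 3 highest of those in all 6 libraries by fold percentile and up to 5 of each treatment-specific class by −log10 q percentile, and named genes were the 3 per chromosome with most regions only in VPA, all with treatment-specific promoters, and up to 4 members of each family in alphabetical order. The values of 1 gene that this rule names are not reported here.

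Whether replicate numbers pair the libraries was checked by the correlation of deviations from the group means of log2 fold enrichment in regions of all 6 libraries. It was 0.865, 0.585 and 0.591 for H3K27ac numbers 1, 2 and 3, and 0.340, -0.0451 and 0.477 for CTCF. For H3K27ac only number 1 correlated best with its own number, and number 2 correlated more with another number (0.607). Pairing was thus not established for either antibody, and the number served as a block only in an alternative. Alternatives covered the q threshold, list length, libraries, chromosome length, genes, promoter window, motif, consensus, overlap and replicate block.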

Additional observations from a re-analysis of the deposited data

How the results depend on the processing

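Of 250 values under an alternative, 223 kept their direction and their side of the threshold or moved by less than the spread. Of the others, 20 reversed their sign, 6 moved further and 1 lost its call. In the main analysis the CTCF changes of width and fold enrichment, chromosome 19 minus 18, were -0.5 bp and -0.22. That of H3K27ac fold enrichment was -1.75, and the log2 change of H3K27ac peaks on chromosome 18 was 0.42. Of the differences between the chromosomes, H3K27ac peaks per gene reversed when long non-coding genes were counted (log2 0.28), and the H3K27ac width difference lost its call in regions of all 6 libraries (190 bp). With equal list lengths, the H3K27ac change on chromosome 18 was -0.060, the CTCF changes of width and fold enrichment, chromosome 19 minus 18, were 14.7 bp and 0.93, and regions only in VPA numbered 17 on chromosome 18 and 58 on chromosome 19. In regions of all 6 libraries those changes were 14.7 bp for CTCF width and 1.61 for H3K27ac fold enrichment. Without replicate 1 in both treatments, chosen after seeing the data, the CTCF changes were 14.2 bp and 1.12, and regions only in VPA numbered 96 and 488. The cause was not tested in any of these cases, apart from the lower number of peaks or libraries that the alternative itself sets.

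Leaving out 1 library at a time was read by value, since 5 libraries cannot reach an exact p below 0.0625. The log2 ratio per Mb then ranged from 2.16 to 2.24 for H3K27ac and from 1.51 to 1.61 for CTCF, and per gene from -0.77 to -0.69 and from -1.42 to -1.31. The CTCF log2 change ranged from -0.32 to 0.094 on chromosome 18 and from -0.14 to 0.068 on chromosome 19, and the difference of the chromosomes from -0.055 to 0.22, from -9.17 to 12.3 bp in width and from -1.71 to 1.44 in fold enrichment, so these signs rest on single libraries (CTRL replicates 1, 2 and 3 and VPA replicates 1 and 2). Regions only in VPA ranged from 42 to 81 on chromosome 18 and from 188 to 468 on chromosome 19, highest without VPA replicate 1.

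With the replicate number as a block (smallest exact p 0.25), the H3K27ac log2 change was 0.43 on chromosome 18 and 0.59 on chromosome 19 and that of CTCF -0.13 and -0.06, and the block changed no call. For CTCF, numbers 1 and 3 correlated best with their own number and number 2 did not. For H3K27ac, number 1 did and numbers 2 and 3 did not. The 3 libraries of a group and the unknown depth limit the treatment comparisons, and a peak that is missing from a list may lie just under the threshold.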
